A study of Mus musculus with 6 samples.

Results

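Transcripts of 10 genes of the Notch pathway were followed in the dorsolateral prostate of TRAMP mice after OSU-CG5 or vehicle. The genes are the receptors Notch1, Notch2, Notch3 and Notch4, the ligands Jag1, Jag2, Dll1 and Dll4, and the target genes Hes1 and Hey1. They were taken by name, as every probe set that the platform's annotation assigns to 1 symbol only, and they comprise 10 of 18193 named genes and 19 of the 45037 probe sets tested. As background, Notch receptors are cleaved after contact with a ligand on a neighbouring cell, and the freed intracellular domain joins the DNA-binding protein RBPJ in the nucleus to switch on genes such as Hes1 and Hey1. In the prostate, Notch signalling is known for its part in epithelial progenitor differentiation, and in vessels Dll4 and Notch4 are known from endothelium.

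The OSU-CG5 group was 3 intact male mice, (C57BL/6 TRAMP x FvB) F1, dosed by oral gavage with 100 mg/kg of the compound per day for 4 weeks, between 6 and 10 weeks of age. The vehicle group was 3 intact males of the same cross and age, gavaged with vehicle for the same period. Every mouse in both groups carries the TRAMP transgene, in which the probasin promoter drives SV40 T antigens in prostate epithelium, so that no prostate without the transgene is included. The dorsal and lateral lobes were dissected 2 to 4 h after dosing ended, and RNA of each animal went to its own Affymetrix array. OSU-CG5 is known here only by its code name.

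All values are log2 RMA signals per probe set, and the number of arrays limits the precision. Array medians lay between 5.30 and 5.38. The prostate label was checked on 8 luminal epithelium markers, among them Pbsn and Hoxb13, which averaged 11.29 to 11.47 in the OSU-CG5 arrays and 11.40 to 11.69 in the vehicle arrays. Vehicle replicate 2 stood apart, with correlations of 0.966 to 0.981 across probe sets with the other arrays, against 0.987 to 0.995 for every other pair. It also had the highest mean of 6 seminal vesicle transcripts, 7.91, against 3.56 to 4.55 in the OSU-CG5 arrays and 3.90 and 5.08 in the other vehicle arrays.

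The comparison of OSU-CG5 with vehicle asks whether Notch pathway transcripts differ in the dorsolateral prostate after treatment. Hes1 showed the largest distance between groups, with a signal 0.738 times that of vehicle and no overlap between the groups. Hey1 and both Jag2 probe sets also read lower, and the brightest probe sets of Notch2 and Jag1 read higher, none of them past limma's adjusted threshold. At a limma p adjusted by Benjamini-Hochberg across the whole array, with a threshold of 0.05, 0 of the 19 member probe sets passed, beside 0% of all probe sets, and the smallest adjusted p among members was 0.224. With limma's array weights 0 members passed, where 822 of all 45037 probe sets did. At an unadjusted p under 0.05, 1 member probe set (Hes1) was called, which is 5.26% of the members against 16.4% of all probe sets. Over single arrays left out, that count was 3 without OSU-CG5 replicate 1, 0 without OSU-CG5 replicate 3 and 2 without vehicle replicate 1. It was 4 without vehicle replicate 3 and 1 otherwise. That 1 was Notch2 1451889_at without OSU-CG5 replicate 2 and Hes1 without vehicle replicate 2. The share of all probe sets was not counted with an array left out. With all arrays kept, upward calls made up 9.63% of all probe sets and downward calls 6.8%. The groups did not overlap for 4 of the 19, which is 21.1% against 23.6% of all probe sets, so that neither share stands above the background. Of these, 2 were higher and 2 lower, where 11.7% and 11.9% of all probe sets were.

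Most differences lay on the low side. Of the 19 member probe sets, 15 were below 0 and 4 above, against 60.5% below 0 among all probe sets. That share depended on signal. With a mean of at least log2 6, 5 of 7 member probe sets were below 0, against 48.2% of all such probe sets. Of the 12 dimmer member probe sets 10 were below 0, and the share of all dimmer probe sets was not counted. Over the 19 and all 45037 probe sets, the medians were as follows. The median log2 difference of the 19 was -0.20, against -0.06 over all probe sets, and their range was -0.44 to 0.37. The members' median was -0.090 without OSU-CG5 replicate 1, -0.10 without vehicle replicate 2 and -0.13 without vehicle replicate 1. Over all probe sets the median was -0.045, -0.034 and -0.055 in the same order. Taking each of the 10 genes by its brightest probe set, the one of highest mean over the 6 arrays, 8 were below 0, where 65.7% of the brightest probe sets of 18193 genes were, with a median of -0.16 against -0.09. In bulk tissue, fewer cells of a type and less RNA per cell cannot be told apart.

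**Figure D1:**
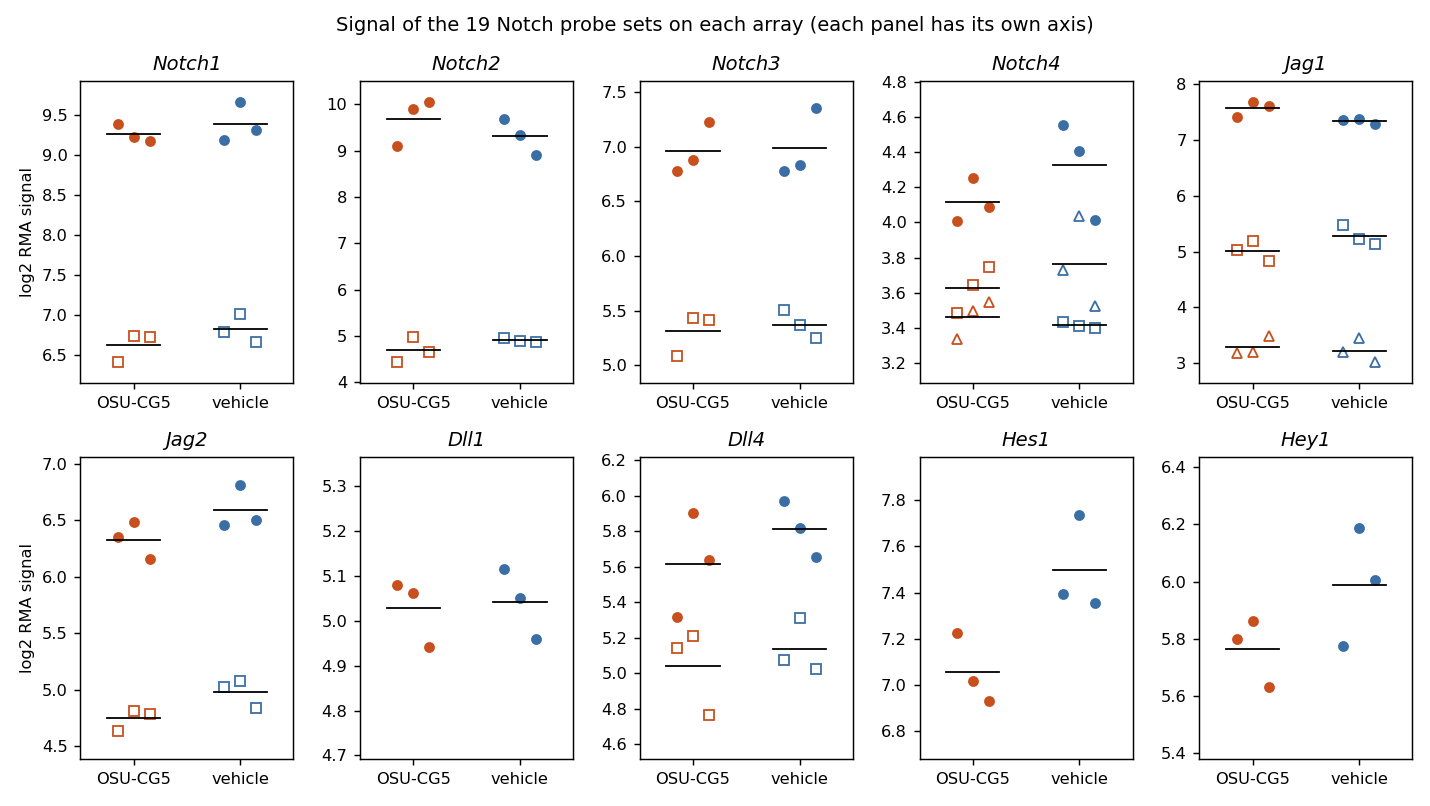
Log2 RMA signal (vertical axes, each panel with its own range) of the 19 probe sets of the 10 Notch genes, with OSU-CG5 arrays in orange and vehicle arrays in blue (n = 3 each); filled points are the brightest probe set of a gene, open points the others, and bars are group means. The Hes1 points of the OSU-CG5 arrays, 6.93 to 7.23, all lie under those of the vehicle arrays, 7.35 to 7.74.

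Hes1 encodes a bHLH repressor that is a direct target of Notch receptors. Its single probe set, 1418102_at, read 7.23, 7.02 and 6.93 in OSU-CG5 replicates 1 to 3, against 7.39, 7.74 and 7.35 in vehicle replicates 1 to 3. Every OSU-CG5 array lay under every vehicle array, and vehicle replicate 2 was the highest of the 6. The means were 7.06 ± 0.15 with OSU-CG5 and 7.50 ± 0.21 in vehicle (SD, n = 3 each). The log2 difference was -0.44 (SE 0.15, 95% interval -0.77 to -0.10), with an unadjusted limma p of 0.0169 that did not survive adjustment (limma adjusted p = 0.224). Without vehicle replicate 2 the difference was -0.32 (limma unadjusted p = 0.0423). With OSU-CG5 replicate 2 left out the unadjusted p was 0.0536, and with replicate 3 left out it was 0.0672.

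Hey1 encodes another bHLH repressor downstream of Notch, known from the heart and vessels. Its probe set 1415999_at read 5.80, 5.86 and 5.63 in the OSU-CG5 arrays, against 5.78, 6.19 and 6.01 in the vehicle arrays. Vehicle replicate 1 lay within the OSU-CG5 range, so the groups overlapped, and vehicle replicate 2 was again the highest. The log2 difference was -0.23 (SE 0.14, 95% interval -0.55 to 0.10, limma adjusted p = 0.447). It was -0.13 without vehicle replicate 2, and leaving out vehicle replicate 1 gave -0.33 (limma unadjusted p = 0.0496, adjusted 0.352). Both target genes therefore read lower on average with OSU-CG5, and neither passed the adjusted threshold.

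Among the receptors, 7 of 9 probe sets were below 0, and their median log2 difference was -0.13. Notch1, a receptor of epithelial and blood cell fate decisions, read 9.39, 9.23 and 9.18 in the OSU-CG5 arrays and 9.19, 9.67 and 9.31 in the vehicle arrays on its brightest probe set, 1418634_at. The groups overlapped, and only vehicle replicate 2 lay above all OSU-CG5 arrays. The log2 difference was -0.13 (SE 0.15, 95% interval -0.47 to 0.21), and it was 0.0098 without vehicle replicate 2. The second Notch1 probe set, 1418633_at, averaged 6.63 ± 0.19 with OSU-CG5 and 6.82 ± 0.18 in vehicle (SD, n = 3 each). Its difference of -0.20 was -0.090 without OSU-CG5 replicate 1 and -0.10 without vehicle replicate 2.

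Notch2, a receptor with wide expression, had the largest spread within groups among the members. Its brightest probe set, 1455556_at, read 9.09, 9.90 and 10.05 in the OSU-CG5 arrays and 9.69, 9.33 and 8.91 in the vehicle arrays. Arrays of both groups lay at the low end, OSU-CG5 replicate 1 and vehicle replicate 3. The log2 difference was 0.37 (SE 0.28, 95% interval -0.27 to 1.01, limma adjusted p = 0.525). It was 0.67 without OSU-CG5 replicate 1 (limma unadjusted p = 0.0249, adjusted 0.364), and 0.19 and 0.17 without OSU-CG5 replicate 3 and vehicle replicate 3. The other Notch2 probe set, 1451889_at, went the other way, at 4.43, 4.98 and 4.66 in the OSU-CG5 arrays against 4.95, 4.89 and 4.88 in the vehicle arrays, a log2 difference of -0.22 (SE 0.15). With OSU-CG5 replicate 1 left out that value was -0.086, and with OSU-CG5 replicate 2 left out -0.36 (limma unadjusted p = 0.0407, adjusted 0.458).

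Notch3, a receptor known from vascular smooth muscle and pericytes, gave means close to each other. The brightest probe set, 1421965_s_at, read 6.78, 6.88 and 7.22 in the OSU-CG5 arrays and 6.78, 6.83 and 7.35 in the vehicle arrays, a log2 difference of -0.02 (SE 0.19, 95% interval -0.46 to 0.41). The interval still admits differences of that size in either direction. An identifier ending in _s_at marks a probe set that can also bind other transcripts. The other probe set, 1421964_at, differed by -0.06 (SE 0.14).

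Notch4, a receptor of endothelium, was dim on all 3 of its probe sets, with means over the 6 arrays from 3.52 to 4.22, and the deposited values carry no measure of background. The brightest, 1456263_at, read 4.01, 4.25 and 4.09 in the OSU-CG5 arrays and 4.55, 4.41 and 4.01 in the vehicle arrays, a log2 difference of -0.21 (SE 0.16). Vehicle replicate 3 was as low as the lowest OSU-CG5 array, and without it the difference was -0.36 (limma unadjusted p = 0.0338, adjusted 0.195), whereas it was -0.092 without vehicle replicate 1. Probe set 1449146_at differed by -0.30 (SE 0.15), while 1436901_at differed by 0.21 (SE 0.12), with every OSU-CG5 array, 3.49 to 3.75, above every vehicle array, 3.40 to 3.44. For 1449146_at leaving out vehicle replicate 2 gave -0.17, and leaving out vehicle replicate 3 gave -0.42 (limma unadjusted p = 0.0249, adjusted 0.172). The 3 probe sets of this gene thus gave no common direction.

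For Notch1, the 250 bases before the annotated start are shown in RefSeq's GRCm38.p6 sequence, since they hold the letters of the N-box, a motif that Hes repressors are known to bind. The window is chr2:26503823-26504072 on the minus strand, and capitals mark the N-box match.
Notch1: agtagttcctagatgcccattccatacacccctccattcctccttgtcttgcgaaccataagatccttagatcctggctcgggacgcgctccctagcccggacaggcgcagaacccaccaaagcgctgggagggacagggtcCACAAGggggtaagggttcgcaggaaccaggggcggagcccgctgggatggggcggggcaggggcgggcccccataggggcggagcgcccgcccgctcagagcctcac
Promoter windows were in the reference table for 8 of the 10 members, in 9 windows, and not for Hes1 or Hey1. Both strands were searched for the RBPJ core TGGGAA, the E-box CACGTG and the N-box CACNAG. The N-box matched 4 of the 9 member windows, those of Notch1, Notch2, Notch3 and Dll4, against 36.7% of the 32851 windows of the same length. The RBPJ core and the E-box matched 0 of the 9, against 21.6% and 6.02% of all windows, so no match overlapped one of another motif. A match describes the letters in the window only.

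The ligands were mixed, with 6 of 8 probe sets below 0 and a median log2 difference of -0.15. Jag2, a transmembrane ligand of the Serrate type, was below 0 on both of its probe sets. Its brightest probe set, 1426430_at, read 6.35, 6.48 and 6.15 in the OSU-CG5 arrays and 6.46, 6.81 and 6.50 in the vehicle arrays. The lowest vehicle array lay just under the highest OSU-CG5 array, so the groups overlapped. The log2 difference was -0.26 (SE 0.15, limma adjusted p = 0.398). Leaving out OSU-CG5 replicate 3 gave -0.17, and leaving out vehicle replicate 2 gave -0.15. Its other probe set, 1426431_at, read 4.64, 4.82 and 4.79 with OSU-CG5 and 5.03, 5.08 and 4.84 in vehicle. There the groups did not overlap, with a log2 difference of -0.24 (limma SE 0.12, adjusted p = 0.368).

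Jag1, the other Serrate-type ligand, read higher with OSU-CG5 on its brightest probe set, 1434070_at. It gave 7.41, 7.69 and 7.62 in the OSU-CG5 arrays and 7.36, 7.39 and 7.29 in the vehicle arrays. The groups did not overlap, although OSU-CG5 replicate 1 lay close to the highest vehicle array. The log2 difference was 0.22 (SE 0.12, 95% interval -0.05 to 0.50, limma adjusted p = 0.388). Probe set 1421105_at of the same gene differed by -0.26 (SE 0.15), with 5.02, 5.19 and 4.83 in the OSU-CG5 arrays and 5.48, 5.22 and 5.13 in the vehicle arrays. It was -0.17 without OSU-CG5 replicate 3 and -0.16 without vehicle replicate 1. The dim probe set 1421106_at differed by 0.06 (SE 0.15).

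The 250 bases before the annotated starts of Jag1 and Jag2 are shown because these are the ligands with a probe set whose groups did not overlap. In GRCm38.p6 the Jag1 window is chr2:137116521-137116770 and the Jag2 window chr12:112929496-112929745, both on the minus strand, and neither has capitals since none of the 3 motifs matched.
Jag1: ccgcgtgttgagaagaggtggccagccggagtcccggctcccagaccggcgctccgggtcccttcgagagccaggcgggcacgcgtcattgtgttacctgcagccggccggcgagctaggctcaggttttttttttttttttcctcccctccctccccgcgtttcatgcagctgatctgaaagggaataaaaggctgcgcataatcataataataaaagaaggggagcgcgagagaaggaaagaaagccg
Jag2: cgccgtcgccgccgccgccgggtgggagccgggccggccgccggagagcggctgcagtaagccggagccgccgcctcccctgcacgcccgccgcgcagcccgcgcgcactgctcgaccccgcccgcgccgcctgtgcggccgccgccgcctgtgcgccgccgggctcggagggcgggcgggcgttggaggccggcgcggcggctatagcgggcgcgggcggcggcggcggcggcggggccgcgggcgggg
The Jag2 window was 87.2% G and C with 54 CpG dinucleotides, and the Jag1 window 57.2% with 20. Over all windows the medians were 52.4% and 6.

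The Delta-type ligands had differences from -0.20 to -0.01, and every 95% interval included 0. Dll4, a ligand of sprouting vessels, read 5.31, 5.90 and 5.64 in the OSU-CG5 arrays and 5.97, 5.82 and 5.65 in the vehicle arrays on its brightest probe set, 1421827_at. The groups overlapped, with OSU-CG5 replicate 1 the lowest of the 6 arrays, and the log2 difference was -0.20 (SE 0.17, 95% interval -0.59 to 0.19). It was -0.046 without OSU-CG5 replicate 1, -0.34 without OSU-CG5 replicate 2 and -0.12 without vehicle replicate 1. The other Dll4 probe set, 1421826_at, differed by -0.10 (SE 0.15). Dll1, a ligand known from somite formation, read 5.08, 5.06 and 4.94 in the OSU-CG5 arrays and 5.12, 5.05 and 4.96 in the vehicle arrays. Its log2 difference of -0.01 had a 95% interval of -0.27 to 0.24, the narrowest of the members.

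**Figure D2:**
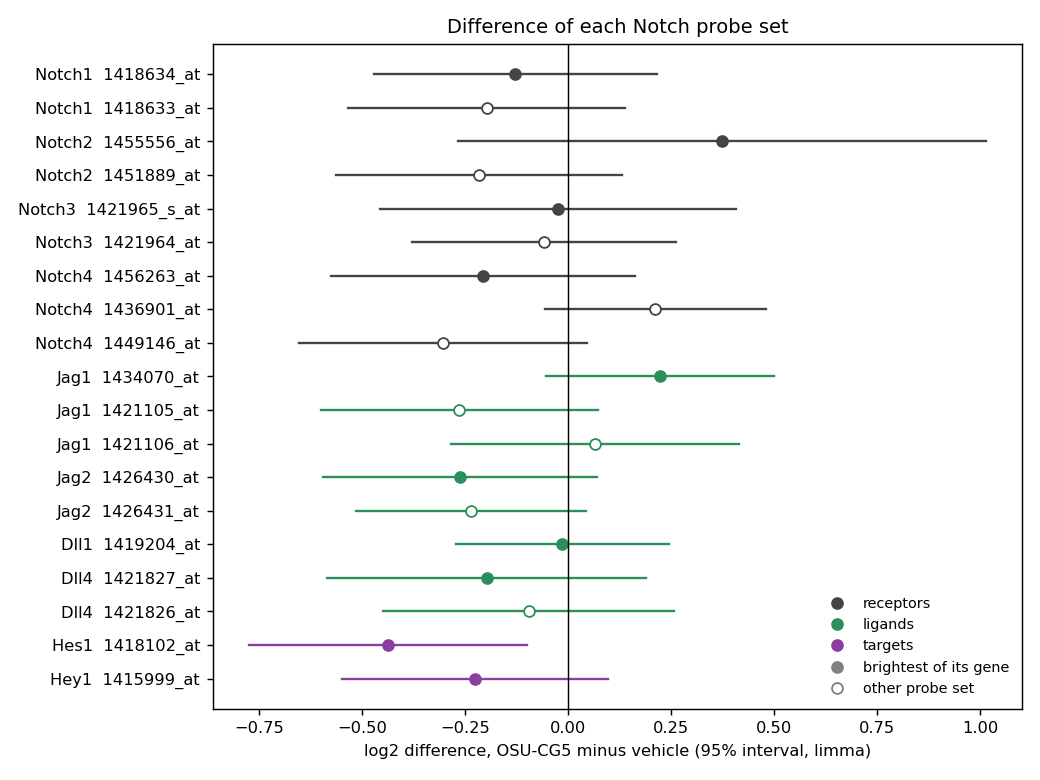
Log2 difference of OSU-CG5 minus vehicle (horizontal axis) for each of the 19 Notch probe sets, with 95% intervals from limma; filled points are the brightest probe set of a gene, and colours mark receptors, ligands and targets. The interval of Hes1, -0.77 to -0.10, leaves out 0, and each of the other 18 includes it.

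Agreement between probe sets was checked for the 7 genes with more than 1 probe set, by setting each other probe set against the brightest. In 6 of these 9 pairs the differences had the same sign. The opposed pairs were Notch2, Notch4 with 1436901_at and Jag1 with 1421105_at. For Jag1, the brightest probe set lay 2.56 ± 0.21 above 1421105_at in the OSU-CG5 arrays and 2.07 ± 0.17 above it in the vehicle arrays, a gap that was 0.49 wider with OSU-CG5 and did not overlap between groups (SD, n = 3 each; two-sided exact permutation p = 0.1, the smallest this design allows). For Notch4 the gap was 0.42 narrower with OSU-CG5, at 0.49 ± 0.14 against 0.91 ± 0.26 in vehicle, again without overlap (SD, n = 3 each; exact permutation p = 0.1). For Notch2 the gap was 0.59 wider with OSU-CG5, with overlap (n = 3 each; exact permutation p = 0.2). The closest agreement was that of the Jag2 probe sets, whose gap differed by -0.03 (n = 3 each; exact permutation p = 0.7). No pair passed adjustment over the 9 comparisons (n = 3 each; exact permutation, smallest adjusted p = 0.45), and a design of this size could not have passed. The same-sign count, recomputed after the data were seen, was 4 to 6 of 9 over the alternatives.

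The rest of the pathway was read from 6 lists of 47 other genes, of which 43 were measured by a probe set naming no other gene, each taken by its brightest one. With limma, 0 of the 43 passed the adjusted threshold, beside 0% of the brightest probe sets of all genes. Unadjusted p-values were under 0.05 for 3 that read higher and 3 that read lower, together 14% against 13.8% of all genes (5.4% higher and 8.43% lower). Groups did not overlap for 12 of the 43, or 27.9% against 22.3%. Their median log2 difference was -0.09, the same as over all genes.

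Of 6 other Notch targets, 5 were below 0, where 65.7% of all genes were, and their median log2 difference was -0.15. Hes5, a bHLH repressor best known from neural progenitors, read 5.50, 5.30 and 5.09 in the OSU-CG5 arrays and 5.71, 5.67 and 5.60 in the vehicle arrays. The groups did not overlap, and the log2 difference was -0.36 (SE 0.13, limma adjusted p = 0.25). Its other probe set differed by -0.13 (SE 0.11). Heyl and the Notch feedback gene Nrarp differed by -0.25 (SE 0.17) and -0.20 (SE 0.22), with overlap. All 4 other ligands were below 0, with Dner at -0.39 (SE 0.20), Dlk2 at -0.22 (SE 0.12) and Dlk1 at -0.21 (SE 0.11), the last without overlap. The other Dlk2 probe set differed by -0.39 (SE 0.14), without overlap. Those of Dner and Dlk1 differed by -0.27 and -0.25, with overlap.

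Genes of receptor maturation and cleavage had a median of 0.00 over 8 members, 4 on each side of 0. Furin, the protease that makes the first cut in the Notch receptor, read 6.21, 6.00 and 6.00 in the OSU-CG5 arrays and 6.38, 7.15 and 6.43 in the vehicle arrays. The groups did not overlap, with vehicle replicate 2 far above the other arrays, and the log2 difference was -0.58 (SE 0.21, limma adjusted p = 0.24). Adam17, a shedding protease, differed by 0.19 (SE 0.11), without overlap, and its 2 other probe sets by 0.54 (SE 0.13, limma unadjusted p = 0.00323, adjusted 0.164) and -0.19. The gamma-secretase subunit Psenen differed by -0.22 (SE 0.14). Among 5 sugar transferases that modify the receptors, Pofut1 differed by 0.26 (SE 0.15), Mfng by -0.25 (SE 0.15) and Lfng by -0.16 (SE 0.15). Of the 5, 0 had groups without overlap, where 22.3% of all genes did. The 2 other Pofut1 probe sets read lower instead, by -0.19 without overlap and by -0.04 with overlap.

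In the nuclear complex, 6 of 8 genes were above 0, with a median of 0.04. Rbpj itself, the DNA-binding partner of the receptors' intracellular domain, read 9.71, 9.65 and 9.74 in the OSU-CG5 arrays and 9.62, 9.75 and 9.47 in the vehicle arrays, a log2 difference of 0.09 (SE 0.12, 95% interval -0.19 to 0.36). Its 2 other probe sets differed by -0.05 and -0.22. Kdm5a, a histone demethylase that is also a corepressor at Notch targets, read 8.49, 8.29 and 8.40 in the OSU-CG5 arrays and 7.66, 7.83 and 8.18 in the vehicle arrays. The groups did not overlap for Kdm5a, with a log2 difference of 0.50 (limma SE 0.15, adjusted p = 0.203). The 5 other probe sets of Kdm5a ran from -0.17 to 0.75. Maml2, a dim coactivator transcript, differed by 0.11 (SE 0.15).

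Of 12 genes of endocytosis and receptor turnover, 3 had an unadjusted p under 0.05, or 25% against 13.8% of all genes, and 8 were below 0. The ubiquitin ligase Nedd4 read 10.35, 10.19 and 10.62 in the OSU-CG5 arrays and 9.80, 10.01 and 9.76 in the vehicle arrays, without overlap. Its log2 difference was 0.53 (SE 0.15, limma adjusted p = 0.183), whereas its 2 other probe sets differed by 0.06 and -0.11. Numb, an adaptor that counteracts Notch signalling, read 9.28, 9.17 and 9.28 with OSU-CG5 and 8.76, 9.11 and 8.86 in vehicle, which differ by 0.34 on the log2 scale (SE 0.13, limma adjusted p = 0.262), and its other probe set differed by -0.15. Dtx1, a Deltex ubiquitin ligase, differed by -0.26 (SE 0.11), and its other probe set by 0.09. Itch, a ligase named here after its values were seen, gave 7.35, 7.61 and 7.41 with OSU-CG5 against 6.55, 4.35 and 7.25 in vehicle. Vehicle replicate 2 lay far under the other arrays, the log2 difference was 1.41 (SE 0.62, limma adjusted p = 0.305), and its 3 other probe sets differed by -0.12 to 0.92.

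**Figure D3:**
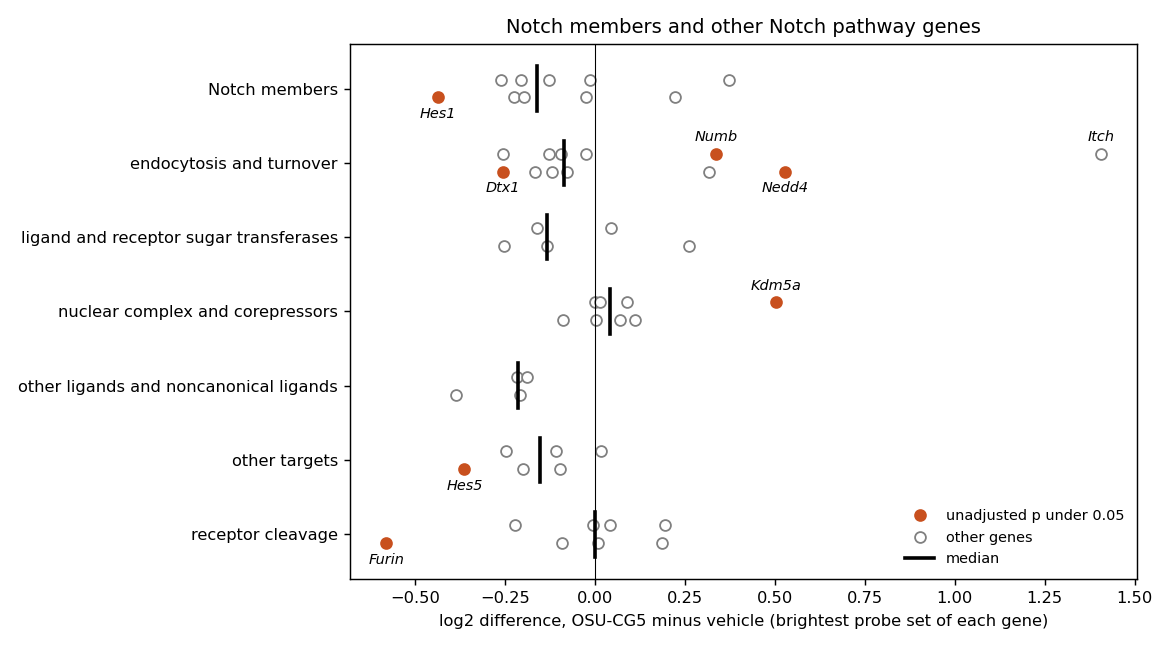
Log2 difference of OSU-CG5 minus vehicle (horizontal axis) of the 10 Notch members and of 43 other Notch pathway genes in 6 lists, each gene by its brightest probe set; black bars are list medians and orange points have an unadjusted limma p under 0.05. Hes1 at -0.44, Hes5 at -0.36 and Furin at -0.58 lie to the left, and Nedd4 at 0.53 and Kdm5a at 0.50 to the right. Itch lies furthest right at 1.41 and is not orange (limma unadjusted p = 0.0505).

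The arrays differed in how they ranked over the members, and marker genes differed between the groups. Vehicle replicate 2 was the highest of the 6 arrays for 8 of the 19 member probe sets and the lowest for 0. OSU-CG5 replicate 1 was the highest for 0 and the lowest for 7, and OSU-CG5 replicate 3 was the lowest for another 7. Endothelial markers, of the cells in which Dll4, Notch4 and Hey1 are known, were all 10 below 0, where 65.7% of all genes were. Their list means were 5.07 to 5.16 in the OSU-CG5 arrays and 5.31 to 5.59 in the vehicle arrays. The endothelial marker Pecam1, the dimmest at 3.87, differed by -0.02 (SE 0.13), with overlap. Of 10 smooth muscle and pericyte markers, the cells in which Notch3 is known, 8 were below 0, near the 65.7% of all genes. Their list means were 8.01 to 8.14 with OSU-CG5 and 8.22 to 8.36 in vehicle. Groups did not overlap for 4 of the 10 (Lmod1, Smtn, Cnn1 and Acta2), all lower, where 22.3% of all genes did not. Rgs5, Cspg4 and Pdgfrb differed by 0.07, -0.06 and -0.33, with overlap.

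Epithelial marker lists had smaller median log2 differences than those of endothelium, -0.32, smooth muscle and pericytes, -0.23, and macrophages, -0.46. Single epithelial markers went further, with luminal Krt8 at -0.50, with overlap, and basal Krt14 at -0.35, without overlap. Luminal markers had a median log2 difference of -0.10 over 8 genes, and basal markers, of the layer that holds progenitor cells, -0.02 over 8 genes, with list means of 6.29 to 6.42 in the OSU-CG5 arrays and 6.31 to 6.53 in the vehicle arrays. Fibroblast markers had 7 of 8 below 0, where 65.7% of all genes were. Their list means were 8.19 to 8.69 with OSU-CG5 and 8.57 to 8.73 in vehicle. All 8 macrophage markers were below 0, at list means of 6.42 to 6.68 with OSU-CG5 and 6.81 to 7.33 in vehicle, and so were all 8 skeletal muscle markers, at 4.70 to 5.37 with OSU-CG5 and 5.51 to 6.19 in vehicle. Markers of dividing cells went the other way, with 6 of 7 above 0 and list means of 7.97 to 8.12 with OSU-CG5 and 7.69 to 7.78 in vehicle. Groups did not overlap for 3 of the 7, where 22.3% of all genes did not. These were Mki67 at 0.49, Kif11 at 0.60 and Top2a at 0.73. Bub1 at 0.39, Aurkb at 0.04, Cdk1 at 0.03 and Plk1 at -0.07 overlapped. What part these marker shifts had in the Notch values was not tested.

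**Figure D4:**
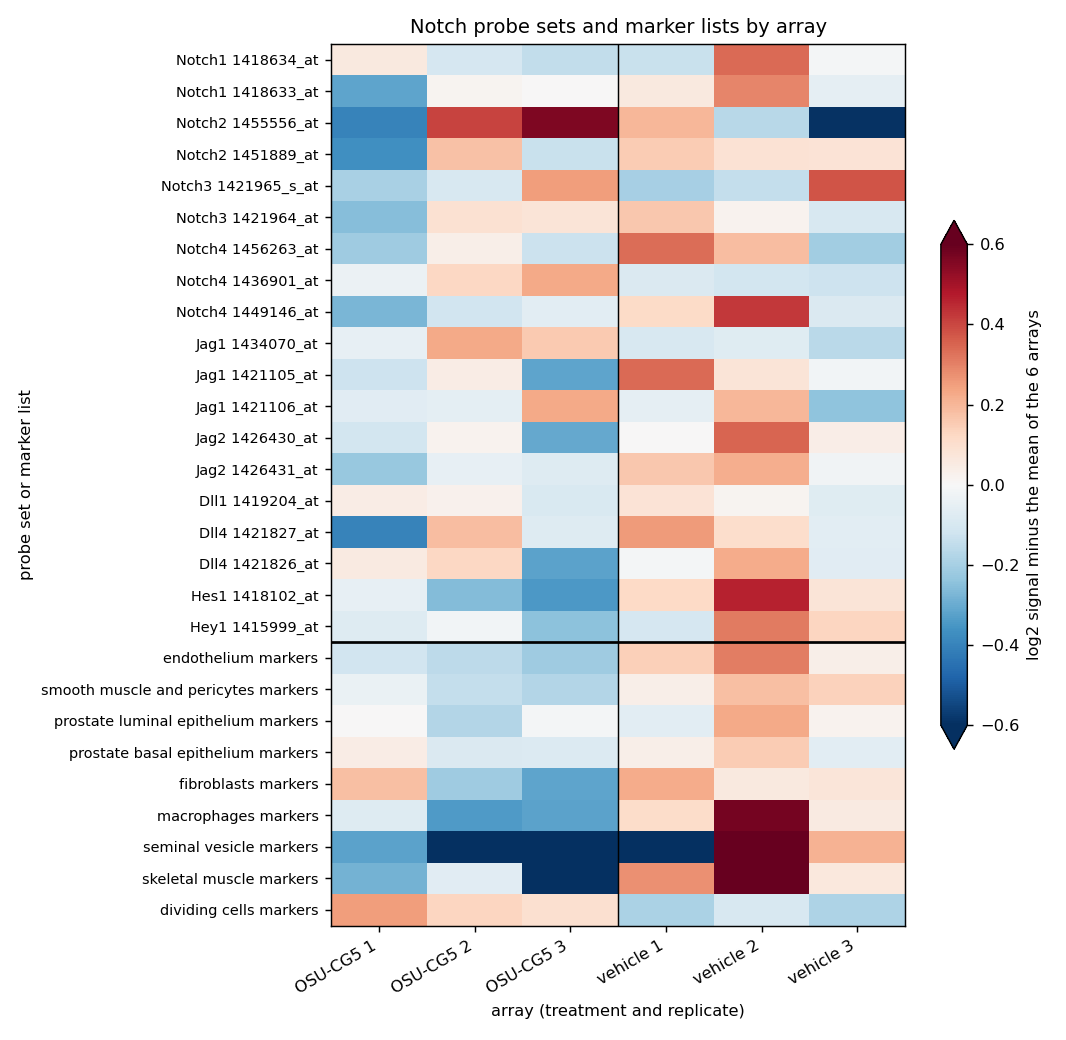
Deviation of each array (columns, 3 OSU-CG5 and 3 vehicle) from the mean of the 6 arrays, in log2 units, for the 19 Notch probe sets (upper rows) and the mean of each marker list (lower rows); colours saturate at -0.6 and 0.6. Vehicle replicate 2 is high for Hes1, Hey1 and Notch1 and for the macrophage, seminal vesicle and skeletal muscle markers.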

How the data were processed

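Total RNA was labelled and hybridised to 1 Affymetrix array per mouse, 3 with OSU-CG5 and 3 with vehicle. The deposited values are log2 signals per probe set, made by the authors with RMA per the submitters' processing notes. The program behind it is not given in the sources used here. RMA normalizes arrays together, which partly removes broad shifts. Groups follow the source label and title, although the description field of some OSU-CG5 samples has another number behind the same prefix. Replicate numbers only name arrays.

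The fit was limma 3.58.1 (R 4.3.3; lmFit, eBayes), OSU-CG5 minus vehicle, with no filter, over 45037 probe sets after removing 64 controls. Benjamini-Hochberg adjustment at 0.05 covered all of them. SE is limma's moderated standard error and SD that of 3 arrays. Of these probe sets 34945 had a single symbol in the platform annotation, 932 several and 9160 none. Gaps between probe sets were compared by two-sided exact permutation. Alternatives were filters at mean log2 6 and 4, median centring, repeated quantile normalization, cyclic loess, trend with robust prior, no moderation, array weights, 1 probe set per gene and each array left out. The fit was tested on simulated data. For each list of other pathway genes, the 3 with smallest unadjusted p were named. Members and lists were chosen with earlier results of these data known. Promoter sequences are RefSeq's, GRCm38.p6.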

Additional observations from a re-analysis of the deposited data

How the results depend on the processing

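No member probe set passed limma's adjusted threshold under any of the alternatives run on it, and the smallest adjusted p was 0.11 (Hes1 with array weights). The 43 other pathway genes also gave 0 adjusted calls throughout. Over all probe sets the adjusted count, 0 in limma as reported, was 822 with array weights and ranged from 0 to 885 over the arrays left out, 400 without vehicle replicate 2 and 885 without vehicle replicate 3. Members at an unadjusted p under 0.05 numbered 2 instead of 1 with repeated quantile normalization, with cyclic loess and with array weights. Their number ranged from 0 to 4 over the arrays left out. The share of all probe sets at that p was not counted under these alternatives. The members' median log2 difference ranged from -0.26 to -0.090 over the arrays left out, and that of all probe sets from -0.079 to -0.034. Hes1 lay below 0 under all 15 alternatives, from -0.52 to -0.32. Directions were kept by 13 of the 19 probe sets, in each alternative run on them. Dll1 turned to 0.0094 with repeated quantile normalization and 0.075 with cyclic loess, and ranged from -0.055 to 0.028 over the arrays left out. Notch3 1421964_at turned to 0.020 with cyclic loess and ranged from -0.12 to 0.054 over the arrays left out, and Notch3 1421965_s_at turned to 0.060 with array weights and ranged from -0.16 to 0.16. The ranges over the arrays left out were -0.23 to 0.0098 for Notch1 1418634_at, -0.040 to 0.18 for Jag1 1421106_at and -0.18 to 0.041 for Dll4 1421826_at. The cause was not tested, beyond the removal of the array. No paired analysis was possible because the labels give the groups no shared replicate numbers. Precision is limited by the 3 arrays per group.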
